A study of Mus musculus with 6 samples.

Results

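Glutathione S-transferases were followed as 10 genes measured in somatic cells of the fetal mouse gonad and in an embryonic stem cell line. The genes are Gstm1, Gstm2, Gstm5, Gstm6 and Gstm7 of the mu class, Gsta3 and Gsta4 of the alpha class, Gstp1 of the pi class, Gstt1 of the theta class and Gsto1 of the omega class. They were chosen by name, and their probes are those whose transcript identifier maps to 1 of these symbols, which gave 18 probes of 39429 gene probes on the array. All 10 genes were among the 19673 genes tested. Soma stands for 3 samples of somatic cells from male gonads at E13.5, taken from MCH x C57BL6/J animals with a transgene that the labels write as Oct5<delta>PE-GFP Tg. ESC stands for 3 samples of the male line VR15, embryonic stem cells with a Vasa::RFP transgene. The soma samples are a mixture of the gonad's somatic cell types, and the ESC samples come from 1 line. The 3 samples of a cell type are biological replicates per the series design, and how the somatic cells were isolated is not given in the sources used here. Each sample gave 100 ng of total RNA to its own array, read with 1 dye.

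Glutathione S-transferases join the tripeptide glutathione to reactive, electron-poor compounds, which makes these compounds more soluble and marks them for export from the cell. The soluble enzymes fall into classes by sequence, each with its own preferred substrates, and several also act as peroxidases or isomerases or bind other proteins. In the gonad they are known for handling products of lipid peroxidation and for their presence in steroid-making and supporting cells. Many of their genes respond to the transcription factor NRF2 through a short DNA element, the antioxidant response element.

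Signals are given as log2 of the scanner's processed signal relative to the 75th percentile of the same array, so that 0 is the signal of a fairly bright probe. That percentile was 1245 to 1388 on the soma arrays and 959 to 1016 on the ESC arrays, and no gene spot was saturated. A signal depends on the probe as well as on the RNA, so levels are compared between arrays and not between probes. Differences are soma minus ESC on this log2 scale unless given as a fold. Marker lists were set against the labels. All 8 pluripotent stem cell markers were lower in soma, and all 8 Sertoli markers, all 5 measured fetal Leydig markers and all 8 interstitial and stromal markers were higher in soma, by limma with an adjusted p under 0.05. Of the Sertoli markers, Sox9, Amh, Fgf9, Cst9 and Defb19 were not well above background on any ESC array. The arrays lay on 2 slides, with soma 1 and 2 on slide 1 and soma 3 beside ESC 1 to 3 on slide 2. No scan held both groups, so that scan and group cannot be told apart. Fewer cells of a type and less RNA per cell cannot be told apart in such bulk samples.

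Sequence just before the gene start was available for 9 of the 10 genes from RefSeq (GRCm38.p6), with 250 bases before each start searched on both strands. The core of the antioxidant response element, TGACNNNGC, matched in 3 of these 9 genes (Gsta3, Gstm5 and Gstm7), and in 11.5% of the 27025 genes with such a window. These matches are shown because the element is the textbook control site of this gene family, with the match in capitals and each stretch read 5′ to 3′ on the gene's strand.
Gsta3, chr1:21240438-21240498, plus strand: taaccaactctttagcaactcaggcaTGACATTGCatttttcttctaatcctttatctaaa
Gstm5, chr3:107895786-107895846, plus strand: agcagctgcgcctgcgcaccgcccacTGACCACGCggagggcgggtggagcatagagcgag
Gstm7, chr3:107931709-107931769, minus strand: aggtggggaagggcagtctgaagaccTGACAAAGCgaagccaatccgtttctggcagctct
The matches begin 121 and 42 bases before the start of Gsta3 and Gstm5, and 129 bases before the inner start of Gstm7. RefSeq lists 2 starts for Gstm7, and the match lies in the window of 1 of them. It lies past the outer start, within the stretch transcribed from there, and the window before the outer start holds no match. A match is a description of these letters and not a bound site.

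The pi class shows how close some of these genes are to a neighbour. Gstp1 lies next to Gstp2 on chromosome 19, and their 250 bases before the start were identical at 207 of 265 aligned columns (78.1%). Both hold a TGANTCA match, the AP-1 site, which 7.82% of genes hold in this window. It reads TGAGTCA followed by gc in both. The search for the antioxidant response element used only the letters TGACNNNGC, so it did not count this stretch. The TGANTCA match is in capitals here.
Gstp1, chr19:4037913-4038162, minus strand: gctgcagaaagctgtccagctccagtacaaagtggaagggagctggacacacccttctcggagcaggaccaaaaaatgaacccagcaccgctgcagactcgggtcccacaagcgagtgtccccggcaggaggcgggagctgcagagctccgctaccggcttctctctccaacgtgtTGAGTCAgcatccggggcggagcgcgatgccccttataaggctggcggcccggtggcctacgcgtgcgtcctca
Gstp2, chr19:4042222-4042471, minus strand: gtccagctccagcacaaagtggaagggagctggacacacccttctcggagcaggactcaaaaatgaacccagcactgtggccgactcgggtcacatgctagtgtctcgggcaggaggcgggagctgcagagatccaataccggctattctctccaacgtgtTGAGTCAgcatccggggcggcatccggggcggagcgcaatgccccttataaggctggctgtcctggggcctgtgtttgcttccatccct
Another site, CAAGGTCA, which the gonadal factor NR5A1 and the stem cell factor ESRRB both bind, matched in 0 of the 9 genes and in 1.51% of all genes. The TGANTCA letters were also found before Gstm5, 176 bases from the start, where they do not overlap its TGACNNNGC match.

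The family split between the cell types. All 5 mu class genes were higher in soma, as were Gsta3 and Gstt1, while Gsta4 and Gstp1 were lower in soma. Gsto1 also passed as higher, but lost its call or changed sign in 10 of 21 alternatives. Of the 10 genes 8 passed as higher in soma and 2 as lower, and 6 of the higher and 1 of the lower differed by at least 2-fold. The background is large, since 84.9% of all genes tested passed in either direction, 38.3% as higher and 46.6% as lower in soma, with 23.2% at least 2-fold higher and 24.2% at least 2-fold lower. Against a median log2 difference of -0.14 over all genes, the median of the 10 was 1.85, and it lay between 1.66 and 2.11 under other scalings and background correction. The values of soma and ESC arrays did not overlap for any of the 10 genes, as for 39.5% of all genes with soma higher and 47.7% with soma lower. On the slide that holds both groups, where soma 3 alone stands for soma, the difference was 4.23 for Gstm7, 3.69 for Gstm6, 3.52 for Gstm2, 2.63 for Gstm5, 1.79 for Gstm1, 1.74 for Gsta3, 0.67 for Gstt1, -0.61 for Gstp1 and -1.81 for Gsta4. Each of these 9 passed there with an adjusted p of 0.00997 or less, assuming that the lone soma array varies like the ESC arrays.

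**Figure D1:**
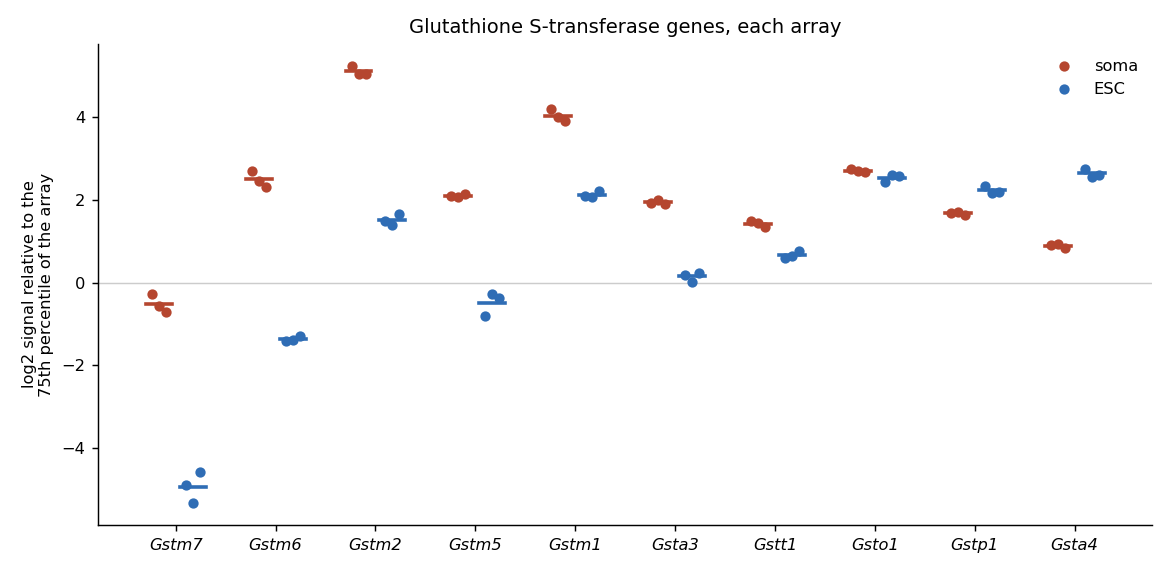
Log2 signal of the 10 genes on each array, relative to the 75th percentile of that array, by the brightest probe of each gene, with soma left of ESC and a line at the mean of 3 arrays. The groups stand apart for every gene, at 4.42 for Gstm7 (2.94 under normexp, below Gstm6 and Gstm2) and narrowest for Gsto1 at 0.18 (-0.02 under scaling to the array median), and heights of different genes are not comparable because they come from different probes.

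Gstm2, a mu class enzyme gene, gave a very bright signal in soma. It stood at 5.25, 5.06 and 5.04 on soma 1 to 3, against 1.50, 1.40 and 1.66 for ESC 1 to 3. All soma arrays lay far above all ESC arrays, and the spread within each group was small beside the gap. Gstm2 was 12.1-fold higher in soma, a log2 difference of 3.59 ± 0.09 (SE, n = 3 per group) with adjusted p 6.57e-07 in limma. Only 5.07% of all genes had a larger difference in this direction.

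Gstm1, a mu class gene known for its abundance in liver, was bright in both cell types. Its values were 4.20, 4.01 and 3.91 on soma 1 to 3, against 2.10, 2.07 and 2.22 for ESC 1 to 3. Soma 1 was the highest array, and the lowest soma array was still well clear of the highest ESC array. The gene was 3.76-fold higher in soma (1.91 ± 0.09, SE, n = 3 per group, adjusted p 5.18e-06).

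Gstm6, the mu gene next but one to Gstm2 on the chromosome, had 2.71, 2.46 and 2.33 on soma 1 to 3, against -1.42, -1.39 and -1.29 for ESC 1 to 3. Its ESC arrays lay close together below the 75th percentile and its soma arrays above it. The difference was 14.5-fold (3.86 ± 0.11, SE, n = 3 per group, adjusted p 7.8e-07), and 4.27% of all genes had a larger one.

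Gstm5 stands at one end of the mu cluster and is read from the opposite strand to the other mu members. It had 2.11, 2.07 and 2.15 on soma 1 to 3, against -0.81, -0.28 and -0.36 for ESC 1 to 3. The soma values were nearly equal, while ESC 1 was lower than the other ESC arrays. The gene was 6.02-fold higher in soma (2.59 ± 0.14, SE, n = 3 per group, adjusted p 1.03e-05).

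Gstm7 was the member nearest to background in ESC. Its brightest probe read -0.28, -0.57 and -0.70 on soma 1 to 3, against -4.89, -5.33 and -4.59 for ESC 1 to 3. It was well above background on all 3 soma arrays and on 1 of 3 ESC arrays. The fitted difference was 4.42 ± 0.21 (SE, n = 3 per group, adjusted p 5.4e-06), or 2.94 under normexp background correction, which lifts signals near background.

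The other probe of Gstm7 was printed on 10 spots of each array, which shows the error of a single spot. On soma 1 to 3 the median spot had a processed signal of 625, 549 and 464 scanner units, against 12.3, 18.6 and 19.9 for ESC 1 to 3. The coefficient of variation over all 10 spots, outlier marks included, was 4.73% to 5.99% on the soma arrays and 51.1% to 85.0% on the ESC arrays. All 10 spots were well above background on each soma array, and 2, 3 and 3 of the 10 were for ESC 1 to 3. With under 6 such spots the probe counts as below background throughout ESC, so its difference is a bound, at least 14.7-fold higher in soma. Under normexp its fitted log2 difference was 2.41, which is smaller than this bound. For such a bound, a dim array's value is replaced by the lowest signal that stands well above background on that array, wherever this is larger. A spot not marked as well above background can still read higher than that lowest signal. The fitted difference under normexp was smaller than the bound for every bound given in this text. Each "at least" therefore depends on that lowest signal and on the scanner's background subtraction, and is not a strict minimum.

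**Figure D2:**
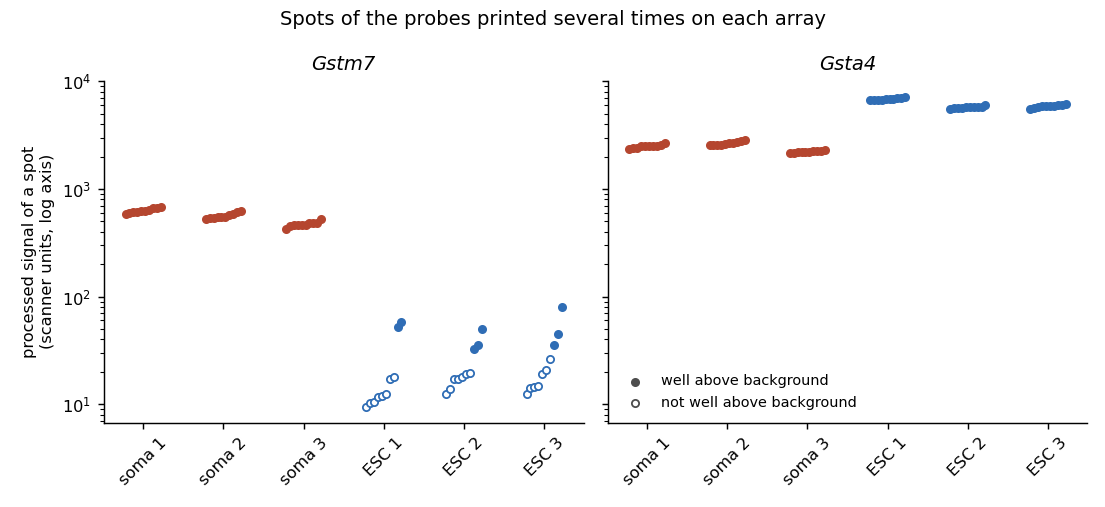
Processed signal in scanner units, on a log axis, of the 10 spots of 1 Gstm7 probe and of the Gsta4 probe on each array, with open circles for spots not well above background. Gstm7 spots scatter on the ESC arrays, where 2 or 3 of 10 are well above background, while Gsta4 spots sit tightly on all 6 arrays.

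Gsta4, whose enzyme prefers hydroxynonenal, an aldehyde formed when lipids are oxidised, went the other way from the mu genes. It stood at 0.90, 0.94 and 0.83 on soma 1 to 3, against 2.76, 2.56 and 2.62 for ESC 1 to 3. The soma arrays were all lower, and the gene fell by 1.75 ± 0.07 on the log2 scale in soma (SE, n = 3 per group, adjusted p 2.57e-06), which is 3.37-fold higher in ESC. Its single probe also has 10 spots on each array, all of them well above background, with a coefficient of variation of 1.94% to 3.88%. The lowest and highest spots were 2369 and 2687 on soma 1 and 5519 and 6115 on ESC 3, so that spot error is small beside the difference.

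Gsta3, an alpha class enzyme known in the mouse for disarming activated aflatoxin, was higher in soma. It had 1.93, 2.003 and 1.90 on soma 1 to 3, against 0.20, 0.02 and 0.25 for ESC 1 to 3. The arrays of each group lay within 0.23 of each other, and the gene was 3.46-fold higher in soma (1.79 ± 0.08, SE, n = 3 per group, adjusted p 3.4e-06). Its other probe gave 1.75. The alpha class members thus went opposite ways, and they lie on different chromosomes, Gsta3 on 1 and Gsta4 on 9.

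Gstp1, the pi class enzyme that is also known to bind stress kinases, was lower in soma. Its brighter probe read 1.69, 1.72 and 1.63 on soma 1 to 3, against 2.35, 2.17 and 2.19 for ESC 1 to 3. The gene fell by 0.56 ± 0.07 on the log2 scale in soma (SE, n = 3 per group, adjusted p 0.000318). Its other probe fell by 1.17 in soma, with 0.84, 0.86 and 0.84 on soma 1 to 3 against 2.13, 1.95 and 1.98 for ESC 1 to 3. Both probes put soma below ESC without overlap but differ in size, and under scaling to the spike-in RNA the brighter one gave -0.34 (adjusted p 0.0126).

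Gstt1, a theta class enzyme that acts on small halogenated compounds, had 1.50, 1.45 and 1.34 on soma 1 to 3, against 0.61, 0.65 and 0.76 for ESC 1 to 3. All soma arrays were higher, by 1.69-fold (0.76 ± 0.07, SE, n = 3 per group, adjusted p 8.99e-05).

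Gsto1, an omega class enzyme that reduces dehydroascorbate and protein thiols rather than conjugating drugs, was bright and nearly level. It read 2.75, 2.70 and 2.68 on soma 1 to 3, against 2.43, 2.60 and 2.57 for ESC 1 to 3. It passed as higher in soma by 0.18 (95% confidence interval 0.02 to 0.33, adjusted p 0.037), but stood at -0.02 (adjusted p 0.826) under scaling to the array median. The call was also lost in 5 of 6 fits that left out 1 array, with adjusted p 0.0564 to 0.114, and remained without ESC 2. On the slide shared by both groups its difference was 0.15 (adjusted p 0.268).

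**Figure D3:**
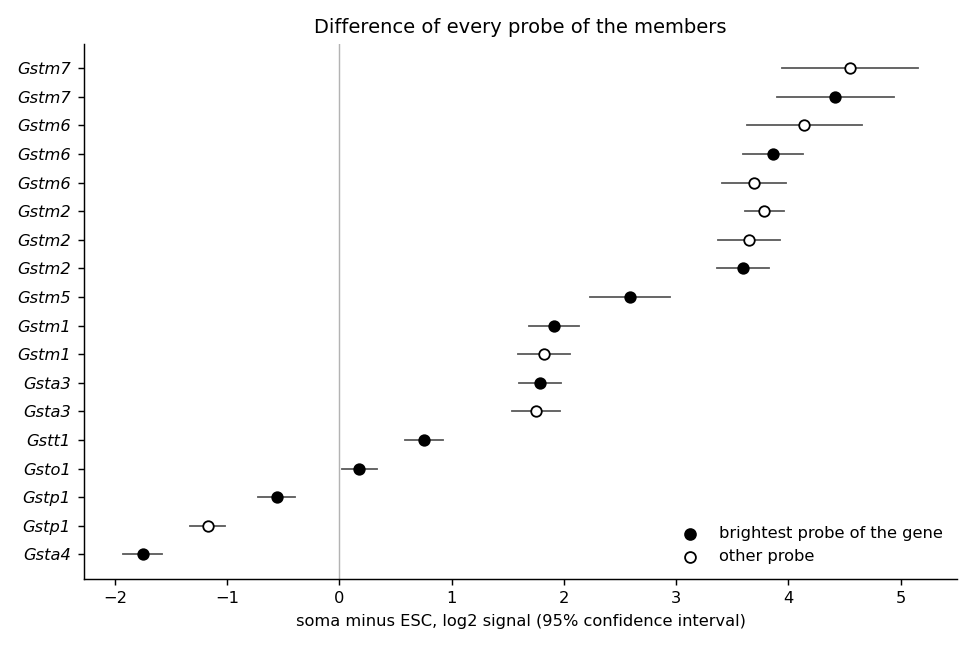
Soma minus ESC difference in log2 signal of all 18 probes, with 95% confidence intervals from limma over all kept probes, filled for the brightest probe of a gene. The probes of Gstm7, Gstm6, Gstm2, Gstm1 and Gsta3 agree within their gene, those of Gstp1 lie at -0.56 and -1.17, and Gsto1 lies next to 0.

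Probes of 1 gene gave like values for most members. Of the 18 probes 15 were higher and 3 lower in soma, each with an adjusted p under 0.05 over 24153 probes, of which 84.7% passed, 38.2% as higher and 46.6% as lower. The 3 probes of Gstm2 gave 3.59, 3.65 and 3.79. The 3 probes of Gstm6 gave 3.70, 3.86 and 4.14 (2.995 for the last under normexp), and the pair for Gstm1 gave 1.83 and 1.91. The sequences of the probes were not used here, so which transcripts of closely related genes each probe binds was not tested. This holds for the mu class and likewise for the alpha and pi classes.

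The 5 mu class members lie on chromosome 3 in the order Gstm5, Gstm7, Gstm6, Gstm3, Gstm2, Gstm1 and Gstm4 with both other mu genes, and no other protein-coding gene lies between them in RefSeq. Along this order the differences were 2.59, 4.42, 3.86, 3.59 and 1.91 for Gstm5, Gstm7, Gstm6, Gstm2 and Gstm1. They rose from Gstm5 to Gstm7 and fell from there to Gstm1. Under normexp the same brightest probes gave 2.49, 2.94, 3.68, 3.61 and 1.90, with the largest at Gstm6. Probes of both other mu genes disagreed. The brighter Gstm3 probe was 2.59 higher in soma and its dimmer probe 1.93 lower, at -3.02, -2.51 and -2.57 on soma 1 to 3 against -0.91, -0.72 and -0.67 for ESC 1 to 3. The brighter Gstm4 probe was 2.33 higher in soma, and its dimmer probe fell by 0.57 there. These 4 probes each had an adjusted p of 0.00014 or less, so the direction of Gstm3 and Gstm4 is uncertain, and all probes of the 5 members were higher in soma.

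**Figure D4:**
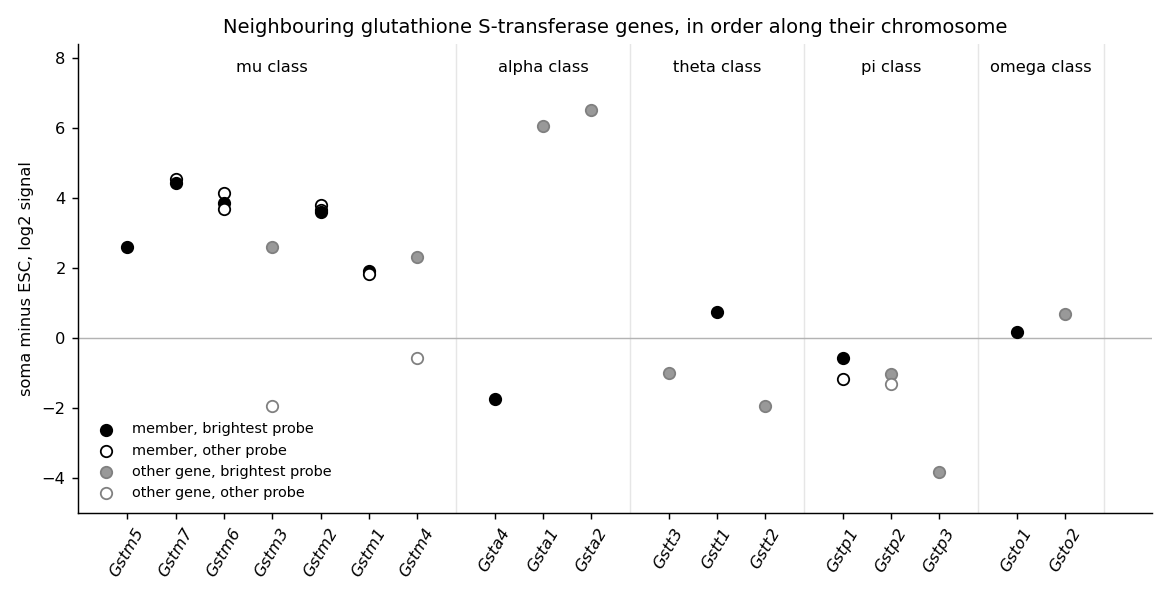
Soma minus ESC difference in log2 signal for probes of glutathione S-transferase genes, set in their order along the chromosome within each class, with members in black and other genes in grey, filled for the brightest probe. The mu members all lie above 0 while the second probes of Gstm3 and Gstm4 lie below it, Gsta4 lies below 0 beside Gsta1 and Gsta2 above it, and all pi class probes lie below 0.

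By their own probes, neighbours of the alpha and theta class members went the opposite way, and those in the pi class went the same way. Whether the probes of Gstp1 and Gstp2, or of Gsta1 and Gsta2, bind only their own transcript was not tested. Gsta4 lies beside Gsta1, with Gsta2 a few genes further on, and these were at least 24.7-fold and at least 58.1-fold higher in soma, with no ESC array well above background for either. Their fitted log2 differences under normexp were 3.08 for Gsta1 and 4.12 for Gsta2, both smaller than these bounds. Gstt1 lies between Gstt3, which fell by 1.01 in soma, and the untested Gstt4, with Gstt2, which fell by 1.94, just beyond. Gstp2, beside Gstp1, fell by 1.02 on its brighter probe and was 2.46-fold higher in ESC on the other, and Gstp3 was not well above background on any soma array and at least 3.89-fold higher in ESC, with a fitted -1.45 under normexp. Gsto2, next to Gsto1, was higher in soma by 0.69 (adjusted p 0.00531).

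The remaining genes of the family and its membrane-bound relatives also divided. Of 21 further genes listed, 18 were tested, and 10 passed as higher in soma, 7 as lower and 1 did not pass, with a median of 0.41 (0.21 to 0.63 under other scalings). Among all genes tested, 38.3% passed as higher and 46.6% as lower. With Gstm3 and Gstm4 taken by their dimmer probes, an alternative chosen after seeing the data, 8 passed as higher and 9 as lower, and the median was -0.34. Mgst1, a microsomal enzyme of the outer mitochondrial membrane and endoplasmic reticulum, was 17.7-fold higher in soma (4.15 ± 0.07, SE, n = 3 per group). Gstcd, named for a C-terminal domain like that of these enzymes, fell by 2.04 in soma, with a difference of -0.68 on its other probe and of -1.44 under normexp. Gstt4 and Hpgds were not well above background on all arrays of either group.

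Within the soma group the mu genes were not equally steady. Deviations from the soma mean on soma 1 to 3 were 0.24, -0.05 and -0.18 for Gstm7, 0.21, -0.04 and -0.17 for Gstm6, 0.16, -0.03 and -0.13 for Gstm1, and 0.13, -0.06 and -0.07 for Gstm2. Each of these 4 was highest on soma 1 and lowest on soma 3, as were Gstt1 (0.07, 0.02 and -0.09) and Gsto1 (0.04, -0.01 and -0.03). Gsta3, Gsta4 and Gstp1 were instead highest on soma 2, at 0.06, 0.05 and 0.04, and Gstm5 deviated by 0.0005, -0.04 and 0.04 on soma 1 to 3. Sertoli markers had median deviations of 0.18, -0.01 and -0.21 on the same arrays, and their summed level, in multiples of the 75th percentile, was 63.7, 56.8 and 47.9, against 0.69 to 0.73 in ESC. Fetal Leydig markers had median deviations of 0.05, 0.006 and -0.04, with a summed level of 80.1 to 81.5 in soma and 3.13 to 3.57 in ESC. Germ cell markers, of which 2 of 7 were higher and 2 lower in soma by the test, ran the other way, at -0.53, 0.05 and 0.49, with a summed level of 5.40, 7.07 and 9.31 on soma 1 to 3 and 8.65 to 9.76 in ESC. The higher were Dazl, by 2.06, and Nanos2, well above background on all 3 soma arrays and on no ESC array. The lower were Kit and Mael, at -1.23 and -1.42. Soma 3 also lay on another slide and in another scan than soma 1 and 2. The part of these cell types, and of slide and scan, in the transferase signals was not tested.

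Other cell types were measured in soma as well. Of 6 erythroid markers 5 were higher in soma, with a summed level of 541 to 559 in soma and 0.138 to 0.175 in ESC, where Hba-a1, Hbb-y, Hba-x and Alas2 were not well above background. All 7 macrophage and leukocyte markers tested were higher in soma, with a summed level of 7.23 to 7.78 in soma and 0.724 to 1.04 in ESC. Endothelial markers (3 of 6 higher, 2 lower) summed to 4.97 to 6.86 in soma and 5.02 to 5.41 in ESC. Kdr gave the largest part of this sum on every array and did not pass in limma (-0.26, adjusted p 0.185). Of the higher markers, Cdh5 and Emcn were not well above background on any ESC array, so like sums do not mean like endothelial content. Mesonephric epithelium markers (6 of 6 lower) summed to 2.05 to 2.73 in soma and 14.9 to 21.2 in ESC, and fibroblast markers, listed for feeder cells (3 of 6 higher, 3 lower), to 193 to 221 in soma and 82.8 to 83.4 in ESC. Their part in the transferase signals was likewise not tested.

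Genes of glutathione synthesis and turnover mostly stood lower in soma. The list mixes genes that make, recycle and break down glutathione with glutaredoxin and glyoxalase genes. Of 23 tested, 17 passed as lower, 5 as higher and 1 did not pass, with a median of -1.29 (-1.48 to -1.07 under other scalings). Over all genes tested, 46.6% passed as lower and 38.3% as higher in soma. Gclc and Gclm, the subunits of the rate-limiting ligase, differed by -1.99 ± 0.05 and -2.48 ± 0.11 (SE, n = 3 per group), and the glutathione reductase gene Gsr by -2.34. Cth and Cbs, which make cysteine from homocysteine, differed by -6.36 and -3.06, and Chac1, whose enzyme breaks glutathione down, was at least 362-fold lower in soma, with no soma array well above background. Those higher in soma include Ggt5, a membrane enzyme that cleaves glutathione and its conjugates, by at least 16.5-fold, Dpep1, a dipeptidase of the same route, by at least 1.95-fold, and Oplah, which recovers glutamate from oxoproline, by 2.04. Under normexp the fitted log2 differences were -6.62 for Chac1, -5.64 for Cth, 2.69 for Ggt5 and 0.59 for Dpep1. Those of Chac1, Ggt5 and Dpep1 are smaller than their bounds. Slc7a11, the cystine carrier gene, was not well above background on all arrays of either group.

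Export pumps for conjugates were also mostly lower in soma, with 7 of 8 lower and 1 higher (median -1.52, or -1.72 to -1.30 under other scalings). Abcc4 differed by -5.37 (-4.62 under normexp) and Abcb1b by -3.87 (-3.24 under normexp), Abcb1a was at least 31.2-fold lower in soma (fitted -3.18 under normexp), and Abcc3 was 2.55 higher (1.29 under normexp). Among 26 regulators and targets of NRF2, 16 were lower in soma, 9 higher and 1 did not pass (median -0.64, or -0.83 to -0.37 under other scalings). Beside both lists, 46.6% of all genes tested passed as lower and 38.3% as higher in soma. The NRF2 list pools target genes with regulator genes, an inhibitor among them, so its count and median do not describe the targets alone. Nfe2l2, the NRF2 gene, fell by 0.64 and its inhibitor gene Keap1 rose by 0.47 in soma. The target genes Nqo1, Txnrd1, Prdx1 and Cbr3 differed by -0.72, -1.81, -1.82 (-1.04 on its other probe) and -2.78, while Me1, Osgin1 and Ephx1 rose by 3.31, 3.02 (1.86 under normexp) and 1.25 (0.68 on its other probe).

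Other enzymes of foreign compound metabolism went both ways. Of 20 tested, 10 were higher in soma, 6 lower and 4 did not pass (median 0.26, or 0.06 to 0.48 under other scalings). The shares over all genes tested were 38.3% higher and 46.6% lower. Aldh1a1, an aldehyde and retinal dehydrogenase, was at least 1705-fold higher in soma, and the cytochrome gene Cyp1b1 was 98.8-fold higher, a log2 difference of 6.63. Under normexp the fitted log2 differences were smaller, at 9.14 for Aldh1a1, below its bound, and 5.62 for Cyp1b1. Sult1a1, a sulfotransferase gene, was at least 4.14-fold higher (fitted 1.22 under normexp), while its relative Sult4a1 differed by -3.33 (-4.97 on its other probe) and the epoxide hydrolase gene Ephx2 by -1.93. Ugt8a differed by -2.36 (-0.93 under normexp), with 1 of 3 soma arrays well above background.

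**Figure D5:**
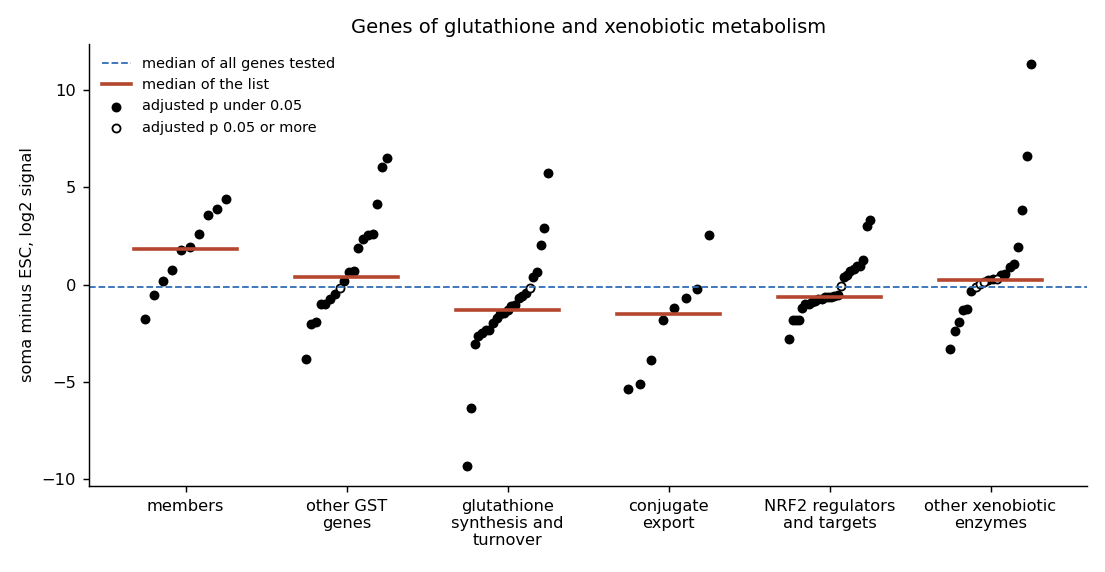
Soma minus ESC difference in log2 signal of each gene in 6 lists, filled where the adjusted p is under 0.05, with a red line at the list's median and a dashed line at the median of all genes, -0.14. The members' median lies at 1.85, and those of glutathione synthesis and turnover, conjugate export and NRF2 genes lie at -1.29, -1.52 and -0.64.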

How the data were processed

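The 1-colour arrays were read with Feature Extraction 10.7.3.1, per the file headers, which also give the deposited processed signal as an intensity after background subtraction and spatial detrending. It was not scaled across arrays. The authors' deposited series matrix holds log2 values of unstated scale. At least 99.96% of its probe values lay within 0.01 of log2 processed signal less the array's 75th percentile and each probe's median over the 6 arrays, so it served as an alternative. Its column medians were 0.055, -0.25 and -0.065 (soma 1 to 3), against 0.16, -0.088 and 0.063 (ESC 1 to 3).

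Spots of a probe were averaged on the log2 scale, leaving out control spots and outlier marks, and scaled to the array's 75th percentile. Probes well above background, by the scanner's mark on over 50% of their spots, on all arrays of at least 1 group were kept (24153). Symbols came from a GRCm38.p6 RefSeq table (66.1% of probes). A gene is its brightest kept probe. The array's grid was built on mm9, so none of its coordinates are given, and the coordinates of printed sequences and the order of genes are those of GRCm38.p6. limma 3.58.1 in R 4.3.3 tested soma minus ESC over 19673 genes, with Benjamini-Hochberg adjustment and a threshold of 0.05. P-values set the difference between the groups against the spread among samples within a group, and precision is limited by how few arrays there are. All ESC samples share a line, so the p-values do not cover variation between stem cell lines. The fit was tested on simulated data.

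The members, lists and tests were chosen with earlier results of these data known. Named are all members, the 3 largest changes each way in every other list, and 7 genes by name. The remaining family members beside a member on its chromosome were named after their values were seen. In total 21 alternatives were run, among them other scalings, normexp (offset 50) on the spots' median signal, filters, slide and scan blocks, and each array left out.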

Additional observations from a re-analysis of the deposited data

How the results depend on the processing

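Of the 10 members, 9 kept their direction and their call under every alternative in which they were tested (Gstm7 was not tested where a probe had to be well above background on all 6 arrays). The exception was Gsto1, which changed sign with each array scaled by its median (-0.0176) and lost its call in 9 other alternatives. The number of members that passed was 7 or 8 higher and 2 lower in soma throughout. Gstm7 ranged from 2.94 (normexp) to 4.64 (spike-in scaling), and Gstp1 from -0.87 (mean of its probes) to -0.34 (spike-in scaling). The median difference of all genes shifted by 0.12 with quantile normalization, by -0.20 with array medians and by 0.22 with spike-in scaling. Of 16 counts of genes or probes that passed in a direction, 14 stayed within 1.5 times the value given. Among glutathione synthesis and turnover genes 3 passed as higher in soma with probes well above background on all 6 arrays, where fewer genes were tested. Of conjugate export genes 0 passed as higher in soma in limma there, since the filter removed Abcc3, and 2 did with the mean of a gene's probes. Replicate numbers did not pair the samples (correlations of deviations -0.05, 0.07 and 0.03 for numbers 1 to 3). With the replicate number as a block, 7446 genes were higher and 9033 lower in soma, and the members were 7 higher and 2 lower, as Gsto1 missed the threshold (adjusted p 0.0888). Signal near background limits Gstm7 in ESC.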
